A study of Bos taurus with 9 samples.

Results

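The small heat shock proteins (HSPs) were described in the liver of lactating Holstein cows, as the rows of the read count file that carry the symbols *HSPB1*, *HSPB2*, *HSPB6*, *HSPB8* and *CRYAB*. All 5 members were found among the 28786 genes of the file. RNA-seq was performed on 1 liver biopsy per cow. The cows were held in thermoneutrality (TN, n = 3), in thermoneutrality while pair-fed (PF, n = 3) or in heat stress (HS, n = 3). According to the methods, the 9 cows were picked at random from a larger herd experiment and were all acclimated in thermoneutrality before the treatments, the PF cows received only as much feed as the HS cows ate, and all biopsies were taken at the same day of treatment. The comparison of HS with TN holds the heat together with the lower feed intake, the comparison of HS with PF holds the heat at a matched feed intake, and the comparison of PF with TN holds the feed restriction without heat. The average days in milk given in the methods were lowest for TN cows and highest for PF cows. Each comparison therefore also holds a difference in days in milk. The 3 comparisons share cows: the HS cows are in the first and the second, the TN cows in the first and the third, and the PF cows in the second and the third.

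Small HSPs are short chaperones built around an alpha-crystallin domain. They need no ATP: they assemble into large, changing oligomers that hold unfolding proteins in a soluble state until ATP-driven chaperones such as HSP70 and its J-domain partners refold them or hand them on for degradation. Several of their genes are classical targets of the heat shock transcription factor HSF1, and several of the proteins are best known from the lens and from muscle, where they bind desmin, actin and other parts of the cytoskeleton. Within the family, *HSPB1* (HSP27) is the broadly expressed member, *HSPB8* works with the co-chaperone BAG3 in the removal of misfolded proteins, *CRYAB* is alpha-B-crystallin of the lens and muscle, and *HSPB2* and *HSPB6* are members of muscle type.

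The study also designed RT-qPCR primers for *HSPB1* and *CRYAB*, the 2 members with every HS cow above every TN cow in the normalized levels given below. Their letters are shown because they mark the members that the study picked for a second measurement. According to the methods, the RT-qPCR genes were a random pick among genes that differed more than 2-fold. The pick thus rests on the same RNA-seq data and is no separate evidence for these members. The RT-qPCR values were not analysed here. The oligos are written 5′ to 3′ in lower case, and no letter is marked.
HSPB1 forward primer: cggacgcacccagaccagccagcat
HSPB1 reverse primer: ggctgtgggccggataccagtcgcg
CRYAB forward primer: acatgaagagcgccaggatga
CRYAB reverse primer: gaggcctgtttccttggtcc
Both *HSPB1* primers are 25 bases long, and the *CRYAB* primers are 21 and 20 bases long.

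The libraries held between 16874444 and 22557047 reads counted on genes. Expression is given as TMM-normalized CPM of the 9 libraries, the read count of a gene scaled to a common library size; CPM is not divided by gene length, so that levels are compared between cows within a gene and not between genes. A count of 0 allows up to 3 counts, or 0.111 to 0.202 CPM depending on the library, and this limit covers counting error only. The hepatocyte markers (*ALB*, *APOB*, *TTR* and others, 12 genes) were detected in every cow, and their summed level lay between 72847 and 151334 CPM in 8 cows. TN replicate 1 stood apart with 22701 CPM. The 13 mitochondrial protein-coding genes took 13.6 to 22.2% of the counts in TN cows, 6.90 to 7.79% in PF cows and 3.84 to 5.68% in HS cows, so that this share moved with the groups. In bulk tissue, a gene made by fewer cells and a gene with less RNA per cell cannot be told apart. The labels give no age or batch of the cows, and the p-values measure the spread between these cows.

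The 5 members together took 0.0317 to 0.0479% of the library in TN cows, 0.0376 to 0.0717% in PF cows and 0.0784 to 0.119% in HS cows. *HSPB1* held most of these reads in every cow, from 62.0% in TN replicate 3 (95% CI 60.9 to 63.0%, Wilson) to 84.3% in PF replicate 2 (95% CI 83.6 to 84.9%). The share of *CRYAB* was 6.81, 3.53 and 13.8% in TN cows, 1.44, 3.45 and 2.17% in PF cows and 21.9, 11.97 and 10.7% in HS cows. The PF cows thus had the lowest shares, while HS replicates 2 and 3 lay below TN replicate 3. PF replicate 2 (95% CI 3.16 to 3.76%) and TN replicate 2 (95% CI 3.15 to 3.95%) had overlapping intervals. The share also depends on the reads of *HSPB1*, and in CPM the *CRYAB* levels of PF and TN cows overlapped. *HSPB2* and *HSPB6*, the members of muscle type, gave at most 0.893% and 3.89% of the member reads in any cow.

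**Figure D1:**
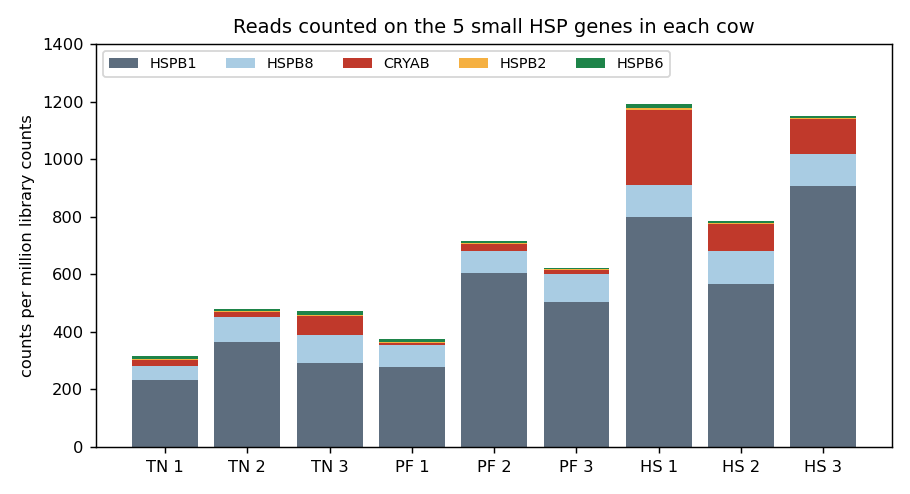
Level of each member in the 9 cows (x axis), stacked by member, as CPM of the library total without TMM scaling (y axis). The 3 HS bars are the tallest, and *HSPB1* is the largest piece of each bar.

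In the comparison of HS with TN, the means of *HSPB1* and *CRYAB* were higher in HS cows and their cows did not overlap, the means of *HSPB2* and *HSPB8* were higher with overlapping cows, and *HSPB6* was at a like level in both groups. A gene was called when its FDR (Benjamini-Hochberg over all genes tested) was under 0.1 and its fold change over 1.5. By the quasi-likelihood test of edgeR, 0 of the 5 members were called, beside 13 of 14582 genes tested (0.0892%). At an unadjusted p under 0.05, 2 of the 5 members were higher in HS cows, against 4.13% of all genes tested. The HS cows all lay above the TN cows in 2 members, against 8.37% of all genes tested. DESeq2 called 2 of the 5 members (*HSPB1* and *CRYAB*), against 1.75% of the 15414 genes it tested. The median log2 fold change of the 5 members was 1.02, and that of all genes tested was -0.01.

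In the comparison of HS with PF, *CRYAB* and *HSPB2*, which are neighbours in the genome, were the members whose HS cows all lay above the PF cows, and the other members overlapped. EdgeR called 0 of the 5 members, beside 4 of 14510 genes tested (0.0276%). At an unadjusted p under 0.05, 2 of the 5 members were higher in HS cows, against 3.07% of all genes tested. Non-overlapping cows with HS higher were found for 2 members, against 5.95% of all genes tested. DESeq2 called 1 member (*CRYAB*), against 0.771% of the 15815 genes it tested. The median log2 fold change of the members was 0.68, and that of all genes tested was 0.01.

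In the comparison of PF with TN, every member overlapped between the groups; *HSPB1* had a higher mean in PF cows and *CRYAB* a lower one. EdgeR called 0 of the 5 members and 0 of 14580 genes tested (0%). No member had an unadjusted p under 0.05, where 2.99% of all genes tested were higher in PF cows at that level. No member had all PF cows above the TN cows, against 6.81% of all genes tested, and none had them all below. DESeq2 called 0 members, against 0.555% of the 16411 genes it tested. The median log2 fold change of the members was -0.11, and that of all genes tested was -0.01.

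**Figure D2:**
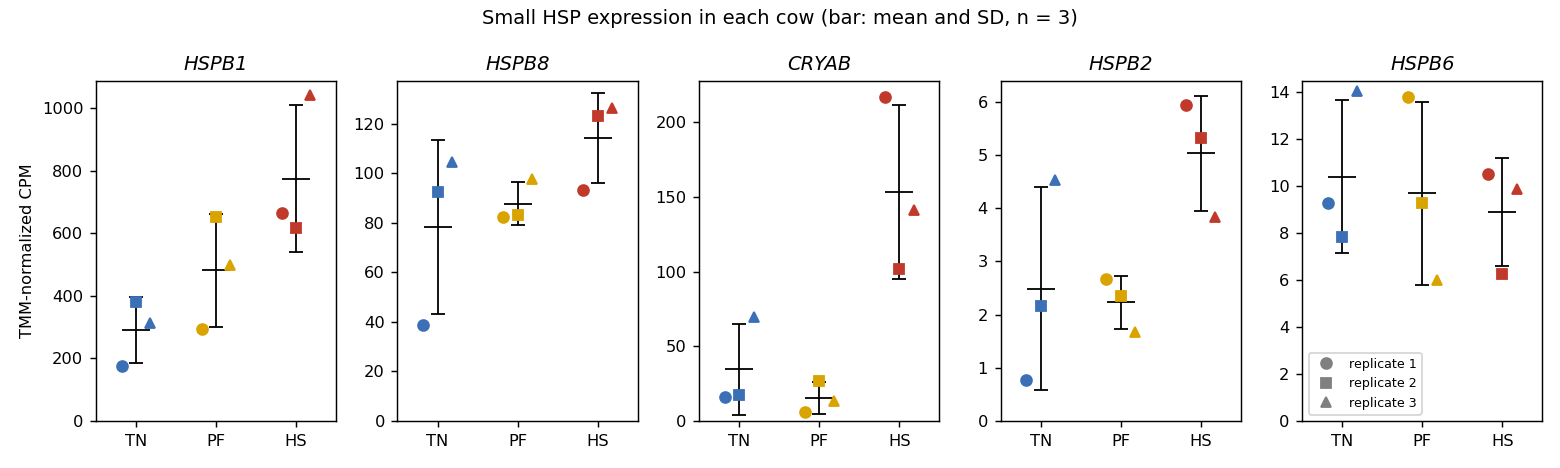
TMM-normalized CPM (y axis, from 0, with a scale of its own in each panel) of the 5 members in each cow of the TN, PF and HS groups (x axis); the symbols give the replicate number, and the bars the mean and SD of n = 3 cows. The HS cows lie above all other cows for *CRYAB*, and above the TN cows for *HSPB1*.

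*HSPB1* encodes HSP27, a chaperone that is phosphorylated in stressed cells and binds actin as well as unfolding proteins. Its level was 174, 381 and 314 CPM in TN replicates 1, 2 and 3. In PF cows it was 293, 651 and 500.4 CPM, and in HS cows 665, 616 and 1044 CPM. The order of the means was TN, PF and HS, at 289.8 ± 105, 482 ± 179.9 and 775 ± 234 CPM (SD, n = 3). The PF cows reached into both neighbouring groups: PF replicate 1 lay among the TN cows and PF replicate 2 above HS replicate 2. The log2 fold change of HS against TN was 1.41 (SE 0.40, edgeR FDR = 0.392), with a 95% CI of 0.50 to 2.32 before adjustment and a fold change of 2.65. Leaving out each cow in turn gave 1.13 to 1.66 with no call, and DESeq2 gave 1.44 with an FDR of 0.00460. Against PF, the log2 fold change of HS was 0.68 (95% CI -0.10 to 1.47, edgeR FDR = 0.960). Between PF and TN it was 0.73 (95% CI -0.16 to 1.62, edgeR FDR = 0.709). DESeq2 gave an unadjusted p of 0.037 for HS against PF (FDR = 0.794) and 0.038 for PF against TN (FDR = 0.615). For neighbours in this order, the edgeR intervals thus held both no difference and a difference past the fold threshold.

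*CRYAB*, or alpha-B-crystallin, is the small HSP of the lens, heart and skeletal muscle, and is also made in other stressed cells. Its level was 16.3, 17.7 and 69.8 CPM in the TN cows. In the PF cows it was 5.74, 26.7 and 13.5 CPM, and in the HS cows 217, 102 and 141 CPM. The lowest HS cow thus lay above the highest cow of both other groups, TN replicate 3 was well above the other TN cows, and TN and PF cows overlapped. These levels rest on 286 to 1171 counts per TN cow, 97 to 477 per PF cow and 1746 to 5879 per HS cow. The means were 15.3 ± 10.6 CPM in PF, 34.6 ± 30.5 CPM in TN and 154 ± 58.4 CPM in HS cows (SD, n = 3).

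*CRYAB* had the largest log2 fold change of the 5 members in both comparisons with HS. Against PF it was 3.33 (SE 0.51, edgeR FDR = 0.102), which is a fold change of 10.02 with a 95% CI of 2.21 to 4.44 on the log2 scale before adjustment. Its p of 4.17e-05 in the edgeR fit was the 5th smallest of 14510 genes, and the FDR lay just outside the threshold. The call depended on the setting: the gene was called under 7 of 14 alternatives, with an FDR from 2.91e-11 by DESeq2 to 0.244 without PF replicate 3, and with a log2 fold change between 2.94 and 4.00 in all of them. The alternative with an FDR under 0.05 used the same fit and could not call it. Among the alternatives that leave out a cow it was called without PF replicate 2 (log2 fold change 4.00, edgeR FDR = 0.0263) and without HS replicate 2 (3.55, edgeR FDR = 0.0967). Against TN the log2 fold change was 2.14 (SE 0.56, edgeR FDR = 0.344), with a 95% CI of 0.88 to 3.40 and a fold change of 4.42. It was the 157th smallest p of 14582 genes. Without TN replicate 3, the TN cow with the high *CRYAB* level, it was 3.16 (edgeR FDR = 0.0921) and passed the threshold; without TN replicate 1 it was 1.81 (edgeR FDR = 0.626). DESeq2 on all 6 cows gave 2.17 (FDR = 0.00152). The log2 fold change of PF against TN was -1.18 (95% CI -2.50 to 0.15, edgeR FDR = 0.709), and without TN replicate 3 it was -0.15.

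**Figure D3:**
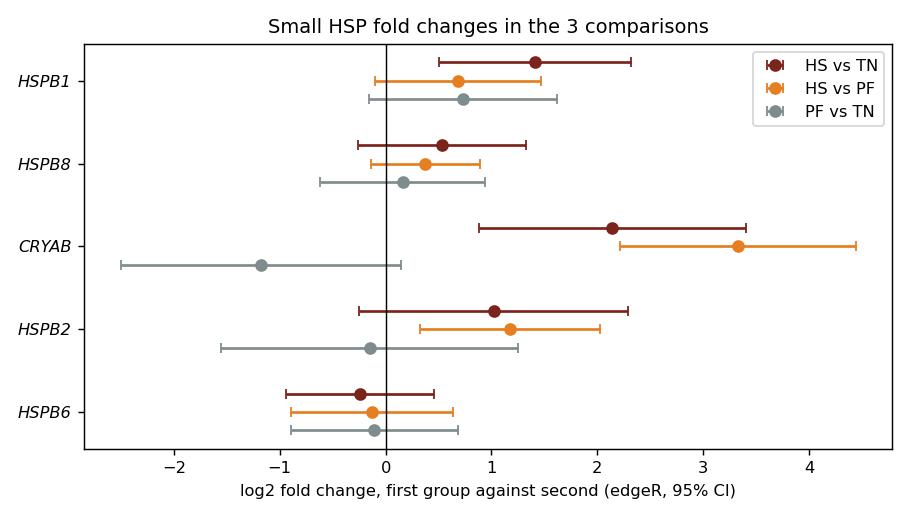
Log2 fold changes of the 5 members (y axis) in the 3 comparisons (x axis, first group against second), with points for the edgeR estimate and bars for the 95% CI before adjustment. The *CRYAB* bars of both HS comparisons and the *HSPB1* bar of HS against TN lie wholly above 0, as does the *HSPB2* bar of HS against PF, and all *HSPB6* bars cross 0.

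*HSPB2*, also called MKBP, binds the myotonic dystrophy protein kinase and is a small HSP of heart and skeletal muscle. It was detected in every cow at 17 to 161 counts. The level was 0.761, 2.16 and 4.53 CPM in TN cows. It was 2.66, 2.35 and 1.68 CPM in PF cows and 5.94, 5.32 and 3.84 CPM in HS cows. The HS cows all lay above the PF cows, while TN cows spread from the lowest level of all 9 cows into the range of the HS cows. The means were 2.23 ± 0.501 CPM in PF, 2.48 ± 1.91 CPM in TN and 5.03 ± 1.08 CPM in HS cows (SD, n = 3). The log2 fold change of HS was 1.17 against PF (SE 0.39, 95% CI 0.32 to 2.03, edgeR FDR = 0.669) and did not pass the threshold. Against TN it was 1.02 (95% CI -0.25 to 2.29, edgeR FDR = 0.577), and it moved from 0.59 without TN replicate 1 to 1.79 without TN replicate 3. PF and TN differed by -0.15 (95% CI -1.55 to 1.25, edgeR FDR = 0.952).

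*HSPB2* and *CRYAB* lie directly beside each other in the gene annotation that RefSeq gives for ARS-UCD2.0 (the reads were aligned to ARS-UCD1.2), and in mammals they are read in opposite directions from a shared stretch of DNA. In these cows *HSPB2* gave 4.67, 12.2 and 6.49 counts per 100 counts of *CRYAB* in TN, 46.4, 8.81 and 12.5 in PF and 2.74, 5.21 and 2.71 in HS cows. The lowest ratio of a TN cow lay below the highest of the HS cows, while the HS cows all lay below the PF cows. The log2 ratio was lower in HS than in PF by a mean difference of -2.35 (exact two-sided permutation test, p = 0.1, the smallest p that 3 cows against 3 can give). It differed by -1.09 between HS and TN (exact permutation p = 0.2) and by 1.26 between PF and TN (exact permutation p = 0.2), and the adjusted p over the 3 comparisons was 0.2 for each. Over the 9 cows, the log2 levels of both genes had a Pearson r of 0.757 and a Spearman rho of 0.767. After subtraction of the group means, r was 0.536, and without the 2 cows farthest from the median *HSPB2* level it was 0.779. *HSPB8*, which does not lie beside *HSPB2*, had a higher r with *HSPB2* over the 9 cows (0.787) and after that subtraction (0.714). Its rho with *HSPB2* (0.567) and its r without those 2 cows (0.701) were lower than those of *CRYAB*. An r of this size was thus also found with a member that is not a neighbour, and the part of the shared stretch of DNA was not tested. The other gene beside *HSPB2*, *C15H11orf52*, stood at 4.56 to 25.3 CPM, and its log2 fold change was 0.33 for HS against TN (edgeR FDR = 0.779) and -0.34 for HS against PF (edgeR FDR = 0.9998). The other gene beside *CRYAB*, listed as *C15H11orf1*, had 0 to 7 counts per cow.

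**Figure D4:**
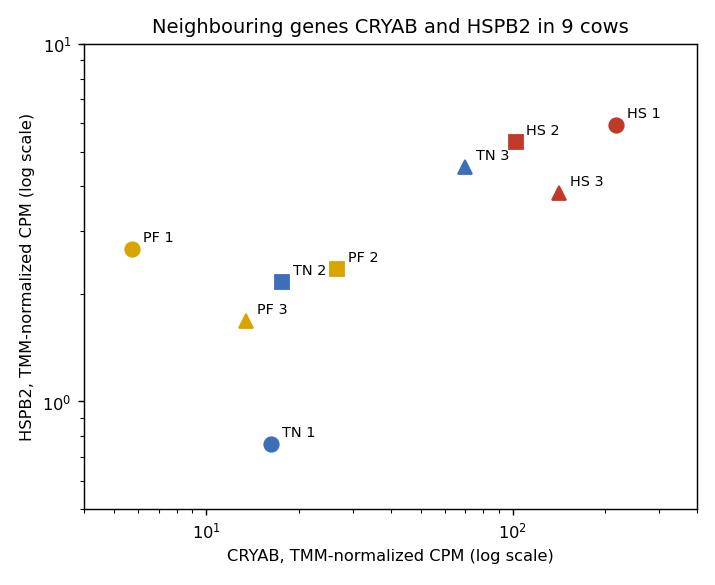
Level of *HSPB2* (y axis) against that of its neighbour *CRYAB* (x axis) in each of the 9 cows, both in TMM-normalized CPM on log scales; colours give the groups and labels the cow. The HS cows lie at the upper right, with TN replicate 3 beside them, and TN replicate 1 has the lowest *HSPB2* level.

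*HSPB8* (HSP22) forms a complex with BAG3 that brings misfolded proteins to autophagy. Its level was 38.6, 92.3 and 105 CPM in TN cows, and TN replicate 1 was the lowest of all 9 cows. The level was 82.3, 83.4 and 97.7 CPM in PF cows and 93.3, 123 and 126 CPM in HS cows. HS replicate 1 fell within the range of both other groups. The order of the means was TN, PF and HS, at 78.5 ± 35.1, 87.8 ± 8.62 and 114 ± 18.3 CPM (SD, n = 3). For neighbours in this order, the intervals below held both no difference and a difference past the fold threshold. The log2 fold change of HS was 0.53 against TN (95% CI -0.26 to 1.33, edgeR FDR = 0.628) and 0.38 against PF (95% CI -0.14 to 0.89, edgeR FDR = 0.9998). Without TN replicate 1, the cow with the low hepatocyte marker level, the log2 fold change against TN was 0.21. PF against TN gave 0.16 (95% CI -0.62 to 0.94, edgeR FDR = 0.913).

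*HSPB6* (HSP20) is known as a relaxing factor of smooth and cardiac muscle after phosphorylation by the cyclic nucleotide-dependent kinases. It stood at 9.31, 7.84 and 14.1 CPM in TN cows, 13.8, 9.28 and 6.01 CPM in PF cows and 10.5, 6.26 and 9.89 CPM in HS cows. All 3 groups overlapped, and the range over the cows of each group was wider than the distance between any of the means. The means were 10.4 ± 3.26 CPM in TN, 9.69 ± 3.91 CPM in PF and 8.89 ± 2.30 CPM in HS cows (SD, n = 3). The log2 fold change was -0.24 for HS against TN (95% CI -0.94 to 0.46, edgeR FDR = 0.801), -0.13 for HS against PF (95% CI -0.89 to 0.64) and -0.11 for PF against TN (95% CI -0.89 to 0.68). *HSPB6* was the only member whose estimate was below 0 in all 3 comparisons, and its direction turned when single cows were left out. The 95% CI of HS against TN does not exclude a level lower by up to 0.94 on the log2 scale.

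Other symbols of the family were close to or at 0. *CRYAA*, the alpha-A-crystallin of the lens, and *ODF1*, of the sperm tail, had 0 counts in all 9 cows. *HSPB3* had 1 count, in HS replicate 1. *HSPB7*, a small HSP of the heart, had 7 counts in PF replicate 1 and 1 count each in PF replicate 3 and HS replicate 1. *HSPB9*, a testis member, had 11, 1 and 3 counts in TN cows, 5 counts in HS replicate 1 and 0 in the other cows. *HSPB11*, a former family symbol for the intraflagellar transport protein IFT25 and not a chaperone by that role, was the only one of these 6 that passed the filter on low counts. It was at 5.14 to 8.81 CPM, with log2 fold changes of -0.28 for HS against TN, 0.16 for HS against PF and -0.43 for PF against TN, of which none was called.

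The partner list held 21 genes known to regulate, modify, bind or follow the small HSPs, all of which were tested. The list was chosen with earlier results of these data known. The shares over all genes are therefore given as background, and the counts of partner genes beside them are no test of the list. In HS against TN, 1 of the 21 genes was called by edgeR (0.0892% of all genes) and 6 by DESeq2 (1.75% of all genes). At an unadjusted p under 0.05, 8 of the 21 were higher in HS cows, where 4.13% of all genes were, and 0 were lower. The median log2 fold change was 0.52, beside -0.01 over all genes tested. In HS against PF, 0 genes were called by edgeR (0.0276% of all genes) and 3 by DESeq2 (*HSPA6*, *HSPH1* and *DNAJB1*; 0.771% of all genes). There, 5 genes were higher at an unadjusted p under 0.05, against 3.07% of all genes, and 0 were lower, with a median of 0.28. In PF against TN, 0 genes were called by edgeR (0% of all genes) and 0 by DESeq2 (0.555% of all genes). At an unadjusted p under 0.05, 4 genes were higher in PF cows, against 2.99% of all genes, and 0 were lower, with a median of 0.26.

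**Figure D5:**
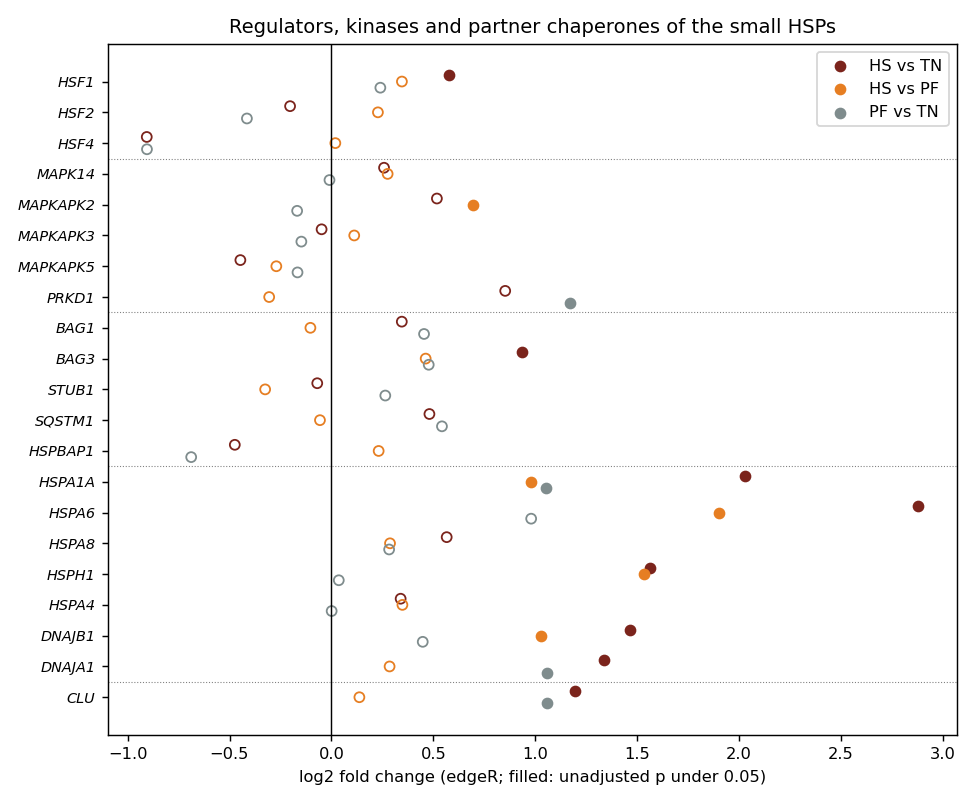
Log2 fold changes (x axis, edgeR) of the 21 partner genes (y axis), in the order of transcription factors, kinases, binding partners, ATP-driven chaperones and *CLU*, with a colour for each comparison and filled points for an unadjusted p under 0.05. All 7 ATP-driven chaperones lie above 0 in HS against TN and in HS against PF, and at or above 0 in PF against TN (*HSPA4* 0.0011, *HSPH1* 0.036), whereas the kinases and binding partners lie on both sides of 0.

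Of the 3 heat shock transcription factors, *HSF1*, the main activator of HSP genes, was at 17.1, 16.1 and 17.6 CPM in TN, 18.4, 23.6 and 18.1 CPM in PF and 22.3, 19.8 and 34.6 CPM in HS cows. The HS cows lay above the TN cows and overlapped the PF cows, and the log2 fold change against TN was 0.58 (SE 0.25, edgeR FDR = 0.520). HSF1 is activated as a protein, which read counts do not measure. *HSF2* (-0.20) and *HSF4* (-0.91, edgeR FDR = 0.545) had lower estimates in HS than in TN cows, with overlap.

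The 5 kinases included *MAPK14* (p38) and its substrate *MAPKAPK2* (MK2), which phosphorylates HSPB1 in stressed cells. *MAPKAPK2* was at 48.8, 66.1 and 60.7 CPM in TN, 48.4, 54.9 and 53.2 CPM in PF and 76.6, 76.1 and 101 CPM in HS cows. Its HS cows lay above all other cows, with a log2 fold change of 0.69 against PF (SE 0.22, edgeR FDR = 0.668) and 0.52 against TN (edgeR FDR = 0.522). *MAPK14* gave 0.26 and *MAPKAPK3* -0.05 against TN. *MAPKAPK5* was the only partner gene whose HS cows all lay below the TN cows (log2 fold change -0.45, edgeR FDR = 0.538). *PRKD1*, protein kinase D, was at 1.31 to 5.68 CPM, and its log2 fold change of PF against TN was 1.17 (edgeR FDR = 0.708).

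Among the 5 binding partners, *BAG3*, the partner of HSPB8, was at 15.7, 32.7 and 31.8 CPM in TN, 27.2, 49.6 and 35.1 CPM in PF and 39.9, 49.3 and 65.5 CPM in HS cows. Its HS cows lay above the TN cows (log2 fold change 0.94, SE 0.31, edgeR FDR = 0.454) and overlapped the PF cows (0.46). The ubiquitin ligase *STUB1*, which pairs with BAG3 and HSPB8, gave -0.07 against TN, and the autophagy receptor *SQSTM1* (p62) 0.48. *BAG1* gave 0.35 and *HSPBAP1*, named for binding HSPB1, -0.47, and none of these 4 was called in any comparison by edgeR or DESeq2.

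All 7 ATP-driven chaperones had HS cows above TN cows with no overlap, against 8.37% of all genes tested. *HSPH1* (HSP110), a nucleotide exchange factor of HSP70, was the only partner gene called by edgeR. It was at 14.5, 19.8 and 22.96 CPM in TN, 16.99, 27.4 and 14.5 CPM in PF and 52.1, 56.1 and 62.6 CPM in HS cows, and rose by 1.56 on the log2 scale against TN (SE 0.23, edgeR FDR = 0.0879). This call was lost when any single cow was left out. *HSPA6*, a strictly inducible HSP70 gene, was at 0.447 to 0.835 CPM in TN, 0.615 to 1.48 CPM in PF and 3.92 to 4.98 CPM in HS cows, with a log2 fold change of 2.88 against TN (SE 0.47, edgeR FDR = 0.114). *DNAJB1*, the J-domain partner of inducible HSP70, gave 1.47 (SE 0.24, edgeR FDR = 0.114), and *HSPA1A*, which encodes inducible HSP70, 2.03 (SE 0.44, edgeR FDR = 0.269). *DNAJA1* gave 1.34 (edgeR FDR = 0.315), the constitutive *HSPA8* 0.57 and *HSPA4* 0.34. Near-identical HSP70 genes can share reads, and the setting for reads that fit several genes was not given in the sources used here, so that the split of reads between *HSPA1A* and its copies is uncertain. *CLU*, a secreted chaperone that like the small HSPs needs no ATP, was at 303, 996 and 789 CPM in TN, 1429, 1287 and 1640.2 CPM in PF and 1454, 1479 and 1873 CPM in HS cows. For *CLU*, both the PF and the HS cows all lay above the TN cows, with log2 fold changes of 1.06 (edgeR FDR = 0.708) and 1.19 (edgeR FDR = 0.495).

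As a description of likeness over the 9 cows, the 3 genes with the highest Pearson r of log2 CPM with each member were taken from 15072 other genes; the cows share their groups and libraries, and no p is given. *HSPA1A*, the inducible HSP70, was among the 3 for *HSPB1* (r = 0.981, rho = 0.883, and r = 0.953 without TN replicate 1 and HS replicate 3). The others were *RNASEK* (r = 0.981, rho = 0.900) and *SMDT1* (r = 0.981, rho = 0.917). For *CRYAB* they were *ATP6AP1L* (r = 0.948, rho = 0.767), *DOK4* (r = 0.932, rho = 0.933) and *LOC508131* (r = 0.929, rho = 0.900), with r between 0.932 and 0.947 without HS replicates 1 and 3. For *HSPB8* they were *LOC509184* (r = 0.979), *LMAN2* (r = 0.978) and *RPN2* (r = 0.977). Without TN replicate 1 and HS replicate 3 these fell to between 0.809 and 0.820, so that a part of their likeness rests on those cows. *HSPB2* was most like *LOC100849067* (r = 0.964, at 1 to 30 counts per cow), *F11R* (r = 0.952) and *SLC35B1* (r = 0.945), and *HSPB6* was most like *PRKAB1* (r = 0.916), *GPR151* (r = 0.909) and *CDS2* (r = 0.880). Between members, *HSPB2* and *HSPB8* had r = 0.787 (rho = 0.567) and *HSPB1* and *HSPB8* r = 0.768 (rho = 0.617), which was 0.202 without TN replicate 1 and HS replicate 3. *HSPB6* had r between -0.28 and 0.20 with the other members.

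Because several members are small HSPs of muscle, the markers of the other tissues and cells that a liver biopsy can hold were summed in each cow. The 16 skeletal muscle markers summed to 5.84 to 7.25 CPM in TN, 6.03 to 10.2 CPM in PF and 8.38 to 10.9 CPM in HS cows, so that this sum was higher in HS than in TN cows without overlap, as was *CRYAB*. The defining genes *ACTA1*, *MYH1* and *MYH7* had 0 counts in all 9 cows, 7 to 10 of the 16 markers were at 0 in each cow, and *MYOZ1* at 2.21 to 7.60 CPM made up 2.21 of the 5.84 CPM in TN replicate 3 and 7.60 of the 10.4 CPM in HS replicate 3. The mean of the log2 levels of the list differed between HS and TN by 0.08, where the log2 of the sums differed by 0.61. The 9 smooth muscle markers summed to 125 to 279 CPM in TN, 153 to 303 CPM in PF and 135 to 263 CPM in HS cows, and the 10 stellate cell and fibroblast markers to 307 to 512, 262 to 445 and 226 to 496 CPM, with overlap of all groups in both lists. The 8 bile duct markers summed to 50.7 to 137 CPM in TN, 45.4 to 94.0 CPM in PF and 21.5 to 113 CPM in HS cows. The 7 Kupffer cell and macrophage markers summed to 903 to 2047 CPM in TN, 888 to 1217 CPM in PF and 1332 to 2106 CPM in HS cows, above PF without overlap, as for *CRYAB* and *HSPB2*. The 6 red blood cell markers were at 4.14 to 23.1 CPM in TN, 0.592 to 3.21 CPM in PF and 0.875 to 2.51 CPM in HS cows, with the TN cows above both other groups. The 6 markers each of endothelial cells (278 to 499 CPM over all cows), T and B cells (32.5 to 59.9 CPM), adipocytes (6.31 to 10.04 CPM, with *LEP* at 0) and keratinocytes (0.9499 to 2.66 CPM) overlapped between the groups. When library sizes were computed on all other genes, with no mitochondrial counts, the log2 fold change of *CRYAB* was 2.14 against TN (edgeR FDR = 0.354). Against PF it was 3.31 (edgeR FDR = 0.0933), and the gene was called in that setting. The part of the cell makeup and of the mitochondrial share in the levels of the small HSPs was not tested, by this setting or otherwise.

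The annotation gave no gene that overlaps a member. *HSPB1* lies between *SRRM3* (0 to 3 counts per cow) and *YWHAG*, whose log2 fold change of HS against TN was 0.84 (edgeR FDR = 0.471) with 0.17 against PF. *HSPB6* lies between *LIN37* (-0.28 for HS against TN, edgeR FDR = 0.695) and *PROSER3* (-1.52, edgeR FDR = 0.503, at 6 to 46 counts per cow). *HSPB8* lies between *CCDC60* and *SRRM4*, which had at most 6 and 7 counts in any cow. The strand setting of the read counting was not given in the sources used here. No antisense or overlapping gene was found at a member in RefSeq of ARS-UCD2.0. The reads were counted on ARS-UCD1.2 with an annotation release that is not given, so that overlap in that annotation was not tested.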

How the data were processed

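The values used are raw counts of reads per gene, deposited by the authors without normalization for 9 liver libraries (poly-A selected, paired-end). According to the methods and the submitters' processing notes, reads were filtered with fastp 0.23.2, aligned to ARS-UCD1.2 with STAR 2.7.9a (at most 3 mismatches) and counted with featureCounts 2.0.3; the annotation release, strand and multi-mapping settings are not given in the sources used here. Groups came from the labels, and 0 columns were left out.

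For every comparison, edgeR 4.0.16 (R 4.3.3) was run on the 6 libraries concerned (TMM, filterByExpr, quasi-likelihood F test, Benjamini-Hochberg over all genes tested). Genes were called at an FDR under 0.1 where the fold change exceeded 1.5. The SE is the log2 fold change divided by the root of F, and the 95% CI uses the degrees of freedom of the fit. CPM were scaled by TMM factors of the 9 libraries, and log2 CPM had an offset of 0.5. DESeq2 1.42.0, the tool of the study, was an alternative, together with RLE size factors, mitochondrial genes left out, no filter or at least 10 counts in every library, a replicate block by the labels' numbers, 1 fit of all 9 libraries, an FDR under 0.05, and each cow left out in turn. The tests were tested on simulated data. Those data had the same spread between cows for all genes, unlike the real counts. They can therefore not decide between edgeR and DESeq2 where their calls differ here. Shares have Wilson intervals; these and the limits for 0 counts (3 counts) cover counting error only, since PCR copies cannot be told apart.

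The genes named are the members, the other family symbols, the partner list, the 3 genes most like each member over the 9 cows, the annotated neighbours, and single markers that define or carry a list. The members and lists were chosen with earlier results of these data known. RefSeq of ARS-UCD2.0 matched 24722 of 28786 symbols and all members, and served for names and neighbours. RT-qPCR, feed intake and clinical values were not analysed here.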

Additional observations from a re-analysis of the deposited data

How the results depend on the processing

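Over the 15 log2 fold changes of the 5 members in the 3 comparisons and 14 alternatives each (210 values), 190 kept their direction and their side of the threshold, 11 kept their direction and passed the threshold that the reported value had missed, and 9 changed direction. The alternative with an FDR under 0.05 reused the reported fits, in which no member was called. Its values, counted among the 190, could therefore not differ. When a cow was left out, *HSPB6* ranged from -0.40 to 0.032 for HS against TN (0.032 without TN replicate 3), from -0.38 to 0.22 for HS against PF (0.22 without PF replicate 1, 0.075 without HS replicate 2) and from -0.44 to 0.18 for PF against TN (0.18 without TN replicate 3, 0.15 without PF replicate 3). For PF against TN, *HSPB2* ranged from -0.58 to 0.62 (0.62 without TN replicate 3, 0.032 without PF replicate 3) and was 0.13 with the replicate block, and *HSPB8* ranged from -0.16 (without TN replicate 1) to 0.43. None of these values was called in either direction. The cause was not tested.

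The number of members called in HS against TN was 0 as reported, 2 by DESeq2, 1 without a filter on low counts and 0 to 1 when a cow was left out (1 without TN replicate 3). In HS against PF it was 0 as reported, 1 by DESeq2, with RLE size factors, with mitochondrial genes left out, without a filter and with at least 10 counts in every library, and 0 to 1 when a cow was left out. Of the partner list in HS against TN, 1 gene was called as reported, 6 by DESeq2, 5 without a filter, 0 with all 9 libraries in 1 fit, 0 at an FDR under 0.05 and 0 whichever cow was left out. In HS against PF, 0 were called as reported, 3 by DESeq2, 1 without a filter and 0 to 1 when a cow was left out.

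The number of all genes called in HS against TN was 13 as reported, 270 by DESeq2, 124 without a filter, 4 with all 9 libraries in 1 fit, 33 with the replicate block, 0 at an FDR under 0.05 and 0 to 39 when a cow was left out (0 without HS replicate 2, 39 without TN replicate 2). In HS against PF it was 4 as reported, 122 by DESeq2, 8 with RLE size factors, 8 with mitochondrial genes left out, 98 without a filter and 5 to 10 when a cow was left out. In PF against TN it was 0 as reported, 91 by DESeq2, 136 without a filter, 1 with at least 10 counts in every library, 1 with the replicate block and 0 to 14 when a cow was left out (14 without TN replicate 2).

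For same-numbered cows, the deviations from their group means had correlations of 0.24, -0.18 and 0.14 between HS and TN. The correlations were 0.04, -0.15 and -0.22 between HS and PF, and -0.03, 0.17 and -0.02 between PF and TN. Cows with unlike numbers were not compared, so these values cannot decide whether the replicate numbers pair the cows. With the replicate block 0 members were called in each of the 3 comparisons, and the FDR of *CRYAB* was 0.210, 0.157 and 0.692 for HS against TN, HS against PF and PF against TN.

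The comparison of levels between genes per length, with its alternative of another gene length, and the sequence features of the members were not run, since no length or sequence table was at hand. With 3 cows in a group, the fold changes of *HSPB2*, *HSPB6* and *HSPB8* had wide intervals in HS against TN. Each interval held both no difference and a difference past the fold threshold. The values of *HSPB2* rested on 17 to 161 counts per cow.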
